A study of Homo sapiens with 8 samples.

Results

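R820W and I593T are missense variants of CARD14, and RNA from HaCaT cells that expressed one or the other was compared directly, without a step through the wild type. HaCaT is an immortalised human keratinocyte line, and in all libraries used here the line carried a knockout of CARD14. The cells were given plasmids that encode CARD14 joined through a self-cleaving peptide to eGFP, with the wild-type (WT) sequence or R820W, N737H or I593T. Per the labels' protocols, 9 ug of plasmid was used per 10 cm dish, the medium was replaced 2 h later, and cells with GFP signal were sorted at 24 h. The comparison rests on 4 of the 8 libraries, the A and B libraries of R820W and the A and B libraries of I593T. WT and N737H libraries entered the fit to estimate the spread, with 2 libraries in each of the 4 groups. The series describes its variants as hypomorphic and reports 2 independent experiments, which the letters A and B were read to mark, although no label says so. No library without plasmid was used here, the knockout is not described as 1 clone or several, and the sort selects cells that took up the plasmid. Of 28518 rows in the count table, 14355 had at least 10 counts in at least 2 of the 4 libraries and were tested.

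CARD14 is a scaffold protein of keratinocytes. With BCL10 and MALT1 it forms a filamentous complex that passes signals to the IKK kinases and the transcription factor NF-kB, and also to MAP kinases. Targets of this pathway in keratinocytes include chemokines, IL-1 family cytokines and antimicrobial proteins, and overactive CARD14 variants are known from psoriasis and pityriasis rubra pilaris. The series title joins CARD14 to MYC, a transcription factor that drives growth and ribosome production.

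The codons that the variants change are shown because they are the difference between the plasmids as labelled. The lines give 57 bases of the coding strand of the reference transcript CARD14-216 (GENCODE, chromosome 17), 5′ to 3′, with the changed codon in capitals. This transcript encodes 1004 residues. The first codon is that of isoleucine, which I593T replaces with threonine, and the second that of arginine, which R820W replaces with tryptophan. The plasmid's own bases are not in the files.
Codon changed in I593T: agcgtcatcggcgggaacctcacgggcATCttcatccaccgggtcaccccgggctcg
Codon changed in R820W: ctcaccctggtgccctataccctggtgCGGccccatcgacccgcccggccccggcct

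The libraries held 17892608 to 24629860 counts. Keratinocyte markers (9 genes, among them KRT14 and TP63) summed to 7411 and 6423 CPM (counts scaled to library size) in R820W libraries A and B and to 5685 and 6279 in I593T. Leukocyte markers summed to 69.9 and 76.8 CPM with R820W and to 59.7 and 73.6 with I593T, nearly all of it CD68. The common leukocyte antigen PTPRC did not exceed 0.197 CPM in any of the 8 libraries. Fibroblast markers summed to 161 to 421 CPM in these 4 libraries, nearly all of it FN1, with VIM at most 0.646. Melanocyte markers summed to 8.82 to 13.97 CPM and endothelial markers to 1.32 to 2.35. Markers of kidney-derived lines summed to 24.4 to 64.7 CPM, mostly CDH2 and NEFL, and PAX2 was at 0.

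I593T replicate B stood apart by a few genes of its own. By a rule of at least 5 CPM there and at least 4 times the highest of the other 7 libraries, 4 genes were set apart. SENP3, a SUMO protease gene, reached 1178 CPM in I593T B and 0.939 to 1.94 CPM in the other libraries. PTP4A2, a phosphatase gene, reached 895 CPM against 59.2 to 88.8. CTLA4, an inhibitory receptor of T cells, had 14874 counts in I593T B (727 CPM), 1 count in R820W B and 0 in the other 6 libraries. DOHH, an enzyme of hypusine synthesis, was at 26.0 CPM against 0.283 to 5.58, with N737H B next. These genes lie on chromosomes 17, 1, 2 and 19 and held 57821 counts, 0.281% of that library. Their relatives did not share the pattern. The read-through model SENP3-EIF4A1 was at 3217 CPM in I593T B and at 2796 to 3794 elsewhere. PTP4A1 was at 315 CPM against 357 to 445, and CTLA4's neighbours CD28 and ICOS were at 0.0977 and 0 CPM. The same rule set apart 16 genes in N737H B, none above 27.1 CPM, and 0 in each of the other 6 libraries. With the ratio to the next library, DOHH at 4.66 was the last gene inside the rule and KLC2 at 3.88 the first outside. CTLA4 did not pass the filter on low counts, and the other 3 were tested but kept out of the genes named below.

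**Figure D1:**
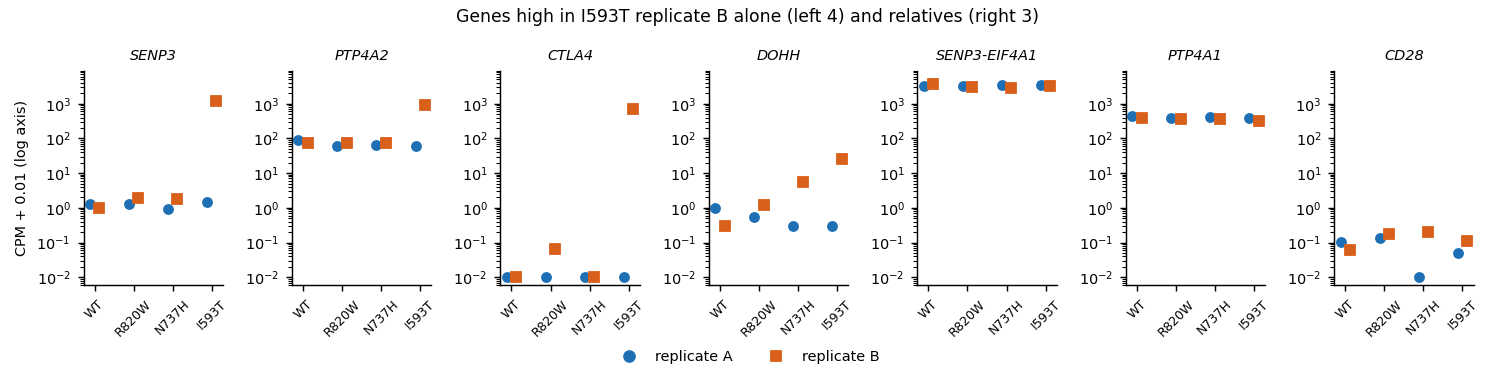
CPM plus 0.01 on a log axis in each of the 8 libraries, by construct, with circles for replicate A and squares for replicate B. SENP3, PTP4A2, CTLA4 and DOHH are highest in I593T replicate B (1178, 895, 727 and 26.0 CPM), while SENP3-EIF4A1, PTP4A1 and CD28 are not.

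CARD14 RNA, which here includes the plasmid's transcript, was at 1179.9 CPM in R820W A and 1398 in R820W B. It was at 502 CPM in I593T A and 1377 in I593T B. The R820W libraries and I593T B thus lay close together and I593T A lay far below them, so the difference within A was 1.23 on the log2 scale and that within B 0.02. The fit gave 0.59 ± 0.37 (SE, n = 2 libraries per group), with a 95% interval of -0.27 to 1.45 (edgeR adjusted p = 1.00). Without I593T A the CARD14 difference was 0.10, without I593T B 1.16 and without R820W A 0.31, and the part of CARD14 RNA in the other differences within A was not tested. MYC was at 782 and 697 CPM in R820W A and B and at 745 and 806 in I593T, so the groups overlapped. Its log2 difference was -0.07 ± 0.14, with an interval of -0.40 to 0.26.

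No gene passed an adjusted p of 0.05 between R820W and I593T. The fit was edgeR's quasi-likelihood model with group and replicate letter, and the share called was 0% of 14355 genes. An unadjusted p under 0.05 was found for 388 genes, where 718 would be found by chance. Of these, 178 were higher with R820W, 1.24% of genes tested, and 210 were lower, 1.46%. Both R820W libraries lay above both I593T libraries for 2000 genes (13.9%) and below them for 2036 (14.2%). With the 4 libraries alone and the letter block 5 genes passed, and DESeq2 with the block passed 7. The 5 were CCL4L2, KRT15, CCL5, C7orf55-LUC7L2 and AK095583, of which the last pair was named after its values were seen. CCL4L2 and KRT15 were also in the DESeq2 set. That set also held CCL3, CCL4, SERPINB13, ZNF625-ZNF20 and LOC647859, of which the last pair was likewise named after its values were seen. DESeq2 without the block passed 0, with 213 genes at an unadjusted p under 0.05, and limma voom with the block passed CCL4L2 alone. With 2 libraries per group, p-values measure only the spread between these libraries, which may be technical.

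The sign of the difference within A matched that within B for 54.5% of genes. Among 9592 genes of at least 5 CPM on average, the difference within A had an SD of 0.22 on the log2 scale and that within B 0.39. Across those genes the differences in A and B had a Pearson correlation of 0.13, given as a description, since genes share libraries and are not replicates. At least 2-fold higher or lower in both letters were 4 of these genes, all higher with R820W. They were CCL4L2, CCL4, NEURL3 and APOBEC3A, the last of which was named after its values were seen. APOBEC3A, a cytidine deaminase of antiviral defence, was at 29.8 and 12.2 CPM with R820W (A and B) and at 4.33 and 4.79 with I593T. Its log2 difference was 2.14 ± 0.68, and it was 1.38 without R820W A and 2.76 without R820W B.

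**Figure D2:**
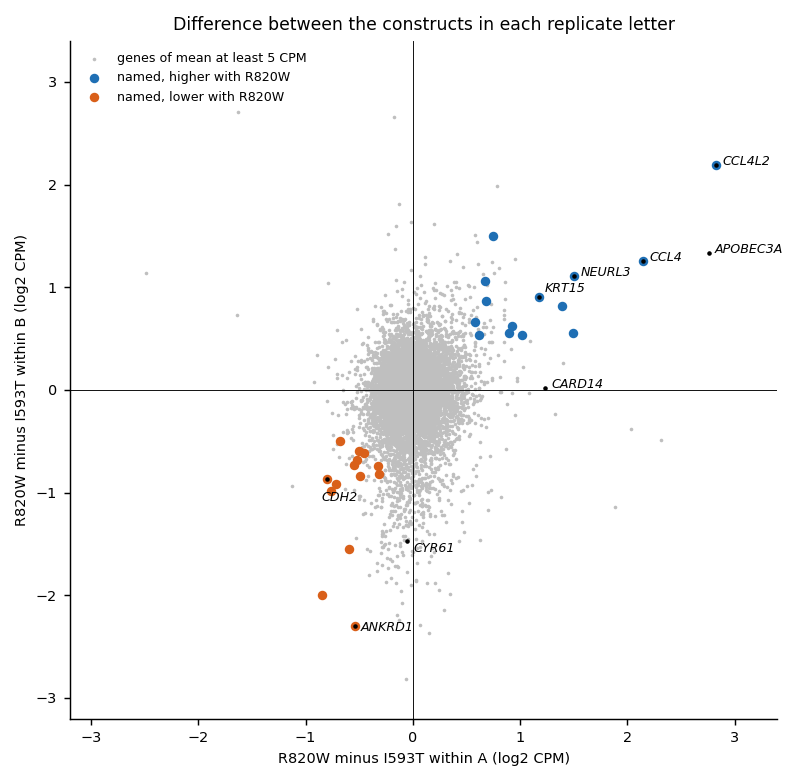
Each point is a gene of at least 5 CPM on average, placed by its log2 CPM difference, R820W minus I593T, within replicate A (x axis) and within replicate B (y axis). Named genes are in colour, 4 of 9592 points lie outside the axes, and CCL4L2 lies at 2.83 in A and 2.19 in B.

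The difference within each letter moved with base composition, in opposite directions. In 9244 genes with a matched GENCODE transcript, Spearman's rho of the difference with transcript GC content was 0.40 within A and -0.32 within B, again across genes of the same libraries. From the lowest to the highest of 5 equal bins by GC content, the median log2 difference went from -0.11 to 0.09 within A and from 0.08 to -0.17 within B. The 14 genes named below as higher with R820W had a median GC content of 51.1% (13 matched), the 14 lower ones 46.2%, and all genes 46.8%. With GC content as a correction in the fit, CCL4L2 stayed at a log2 difference of 2.56 (edgeR adjusted p = 0.0808) and 0 genes passed.

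**Figure D3:**
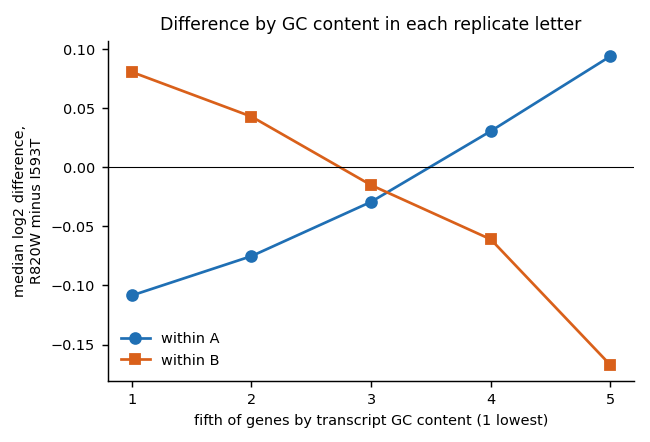
Median log2 difference, R820W minus I593T, in each of 5 equal bins of genes by transcript GC content, within replicate A (circles) and replicate B (squares). The median climbs from -0.11 to 0.09 within A and drops from 0.08 to -0.17 within B.

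CC chemokines and small proline-rich genes had the largest median differences of the 31 gene lists, both higher with R820W. CC chemokines attract monocytes, T cells and dendritic cells, and CCL3, CCL4 and CCL5 are textbook targets of NF-kB. Of 15 listed, 11 were tested and all 11 had a higher fitted value with R820W, 9 of them in A and in B. Their median log2 difference was 0.87 (0.86 within A and 0.88 within B), where the median of all genes tested was -0.01. An unadjusted p under 0.05 was found for 7 of them, where 1.24% of all genes were so called on the higher side. Both R820W libraries lay above both I593T libraries for 5, where the share of all genes was 13.9%. None of the 11 passed adjustment in edgeR's main fit, on all 8 libraries. CCL3, CCL4 and CCL4L2 passed in DESeq2 with the block, and CCL4L2 and CCL5 with the 4 libraries alone and the block. The members with an unadjusted p under 0.05 included CCL3 and CCL4 and their near-copies CCL3L1, CCL3L3 and CCL4L2. Near-copies may share reads with the gene they resemble, so these members are not independent of each other. Despite the near-equal medians, each of these genes differed more within A than within B, such as CCL3 (1.49 and 0.55) and CCL4 (2.15 and 1.26). CCL2 and CCL22 went the other way. CARD14 RNA also differed more within A (1.23) than within B (0.02), and its part was not tested. Fewer expressing cells and less RNA per cell cannot be told apart in such bulk samples. Without I593T B, 9 of the 11 were higher, with a median of 0.65.

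CCL4L2, a near-copy of the macrophage chemokine gene CCL4, was at 69.0 CPM in R820W A and 21.3 in R820W B. It was at 9.63 CPM in I593T A and 4.59 in I593T B, so both R820W libraries lay above both I593T libraries. The log2 difference was 2.55 ± 0.21, a fold of 5.86 (edgeR adjusted p = 0.0541), and the 95% interval was 2.07 to 3.04. WT libraries held 17.96 and 8.17 CPM. Set against WT, with which both contrasts share libraries, R820W differed by 1.68 ± 0.20 and I593T by -0.87 ± 0.20. CCL4 itself was at 19.5 and 9.37 CPM with R820W and at 4.33 and 3.86 with I593T (1.77 ± 0.33). The best local alignment over all pairs of CCL4 and CCL4L2 transcripts was identical at 95.5% of 1088 aligned bases. Reads may thus have been split between the 2 genes in a way that the files do not show.

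CCL3, the partner of CCL4 in the same cluster on chromosome 17, was at 162 and 63.6 CPM with R820W and at 57.7 and 43.2 with I593T. Its log2 difference was 1.04 ± 0.21, and 0.67 without R820W A, and the groups did not overlap. Its near-copies CCL3L1 (0.79 ± 0.18) and CCL3L3 (1.14 ± 0.24) share reads with it to an unknown degree. CCL3L1 was at 302 and 100.3 CPM against 149 and 69.1, so R820W B lay below I593T A. CCL5, a T-cell attractant, was at 274 and 203 CPM against 150.4 and 109.9, with no overlap (0.87 ± 0.31). CCL20, the ligand of CCR6 on Th17 cells, was at 11.2 and 9.64 CPM against 8.05 and 6.84 (0.48 ± 0.18). CCL2 and CCL22 had a difference below 0 within A (-0.23 and -0.16) and above 0 within B (1.52 and 1.60).

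The bases before the start of CCL3 are shown as the promoter of a chemokine of this cluster. They are 250 bases before the RefSeq start on the minus strand at chr17:36090144-36090393 (GRCh38.p14), 5′ to 3′. The motifs searched, on both strands, were the 10-base NF-kB consensus, the AP-1 site TGANTCA, the TEAD site CATTCC and the E-box CACGTG. None of their letters is in this window.
CCL3: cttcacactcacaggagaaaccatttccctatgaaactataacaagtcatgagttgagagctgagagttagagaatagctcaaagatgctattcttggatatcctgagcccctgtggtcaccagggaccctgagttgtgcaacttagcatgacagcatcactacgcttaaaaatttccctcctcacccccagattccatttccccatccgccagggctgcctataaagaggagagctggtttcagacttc

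CXC chemokines, which draw neutrophils and T cells, gave a smaller median. Of 9 tested, 6 were higher and 3 lower with R820W, with a median of 0.18, and 0.08 without I593T A. CXCL2 (1.69 ± 0.61), at 1.39 and 1.51 CPM against 0.283 and 0.635, was the member with an unadjusted p under 0.05. The abundant neutrophil attractants overlapped, with CXCL1 at 394 and 235 CPM against 395 and 244 (-0.03 ± 0.14) and IL8 at 385 and 165 against 431 and 136 (0.07 ± 0.23).

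Among IL-1 and IL-36 family genes, 8 of 11 tested were higher, with a median of 0.16. IL36G, an epidermal cytokine of psoriatic skin, was at 34.1 and 22.03 CPM with R820W and at 21.2 and 12.02 with I593T (0.78 ± 0.16). IL1RN, the IL-1 receptor antagonist, was at 244 and 366 CPM against 176 and 271 (0.45 ± 0.18). The IL36G groups did not overlap, by a narrow margin, while those of IL1RN overlapped although each letter gave a higher value with R820W. IL1B was at 275 and 153 CPM against 251 and 198 (-0.13 ± 0.25).

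Other inflammatory secretion was divided, with 6 of 12 tested genes higher and a median of 0.00. CSF3, the granulocyte colony-stimulating factor, was at 18.3 and 18.8 CPM against 12.7 and 9.28, with no overlap (0.77 ± 0.18). TNF was at 37.7 and 21.98 CPM against 30.03 and 15.4 (0.42 ± 0.16). CSF2 went the other way, at 23.4 and 17.2 against 25.8 and 23.8 (-0.31 ± 0.17).

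NF-kB target genes for survival and adhesion had 13 of 15 tested members higher and a median of 0.19 (0.26 within A and 0.30 within B), which was 0.30 without R820W A. TRAF1, an adaptor of TNF receptors, was at 29.7 and 9.21 CPM against 15.7 and 6.06 (0.77 ± 0.20). ICAM1, an adhesion receptor for leukocytes, was at 40.7 and 39.0 CPM against 27.1 and 28.9, with no overlap (0.50 ± 0.17). The subunits and feedback inhibitors of NF-kB were more evenly divided, with 9 of 16 higher and 0 at an unadjusted p under 0.05. Their median was 0.14 in the fit, 0.05 within A and -0.03 within B. Without I593T B, 12 of the 16 were higher. NFKBIA, which encodes the inhibitor IkB-alpha, was at 99.4 and 145 CPM against 99.3 and 294. The I593T B value stood alone above the rest. The partners of CARD14 in the signalling complex were near equal, with a median of 0.03 over 22 genes. BCL10 was at 104 and 108 CPM against 111 and 96.7.

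AP-1 and immediate-early genes were evenly divided, with 9 of 18 tested higher. Their median was 0.02 in the fit and 0.27 within A and 0.03 within B. Without I593T B, 14 of the 18 were higher and the median was 0.37. ZFP36, which speeds decay of cytokine mRNA, was at 12.4 and 12.9 CPM against 8.86 and 7.72 (0.61 ± 0.23). FOS was at 298 and 424 CPM against 189 and 195 (0.89 ± 0.48), with no overlap. FOSL1 was at 301 and 274 against 327 and 649 (-0.74 ± 0.48), with I593T B above the rest.

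**Figure D4:**
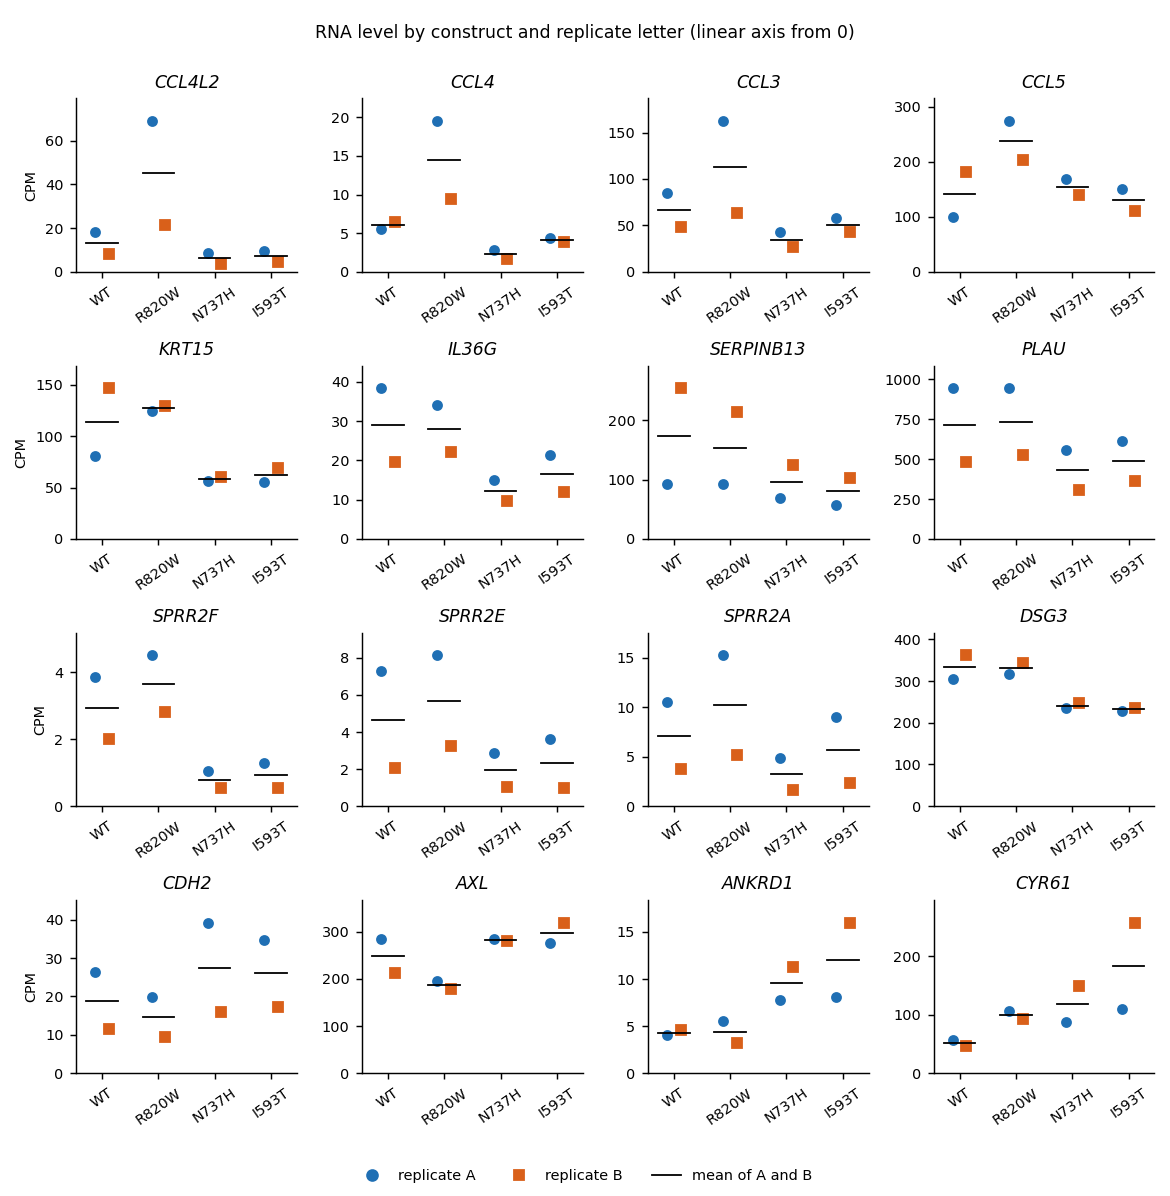
CPM of 16 genes in the 8 libraries on linear axes from 0, by construct, with circles for replicate A, squares for replicate B and bars for the mean of both. CCL4L2 stands at 69.0 and 21.3 CPM with R820W and at 9.63 and 4.59 with I593T, while ANKRD1 stands at 5.56 and 3.18 with R820W and at 8.14 and 15.98 with I593T.

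Small proline-rich (SPRR) genes encode short proteins that are cross-linked into the cornified envelope of differentiating keratinocytes. Of 11 listed, 7 were tested, and all 7 were higher with R820W in A and in B, with a median log2 difference of 0.93. An unadjusted p under 0.05 was found for 5 of the 7 (1.24% of all genes) and non-overlapping higher values for 3 (13.9% of all genes), but none passed adjustment. SPRR2F was at 4.49 and 2.80 CPM with R820W and at 1.30 and 0.537 with I593T (2.04 ± 0.35), so each R820W library exceeded each I593T library. SPRR2E was at 8.13 and 3.23 CPM against 3.64 and 0.977 (1.40 ± 0.28). SPRR2A, the most abundant SPRR2 gene here, was at 15.2 and 5.17 CPM against 8.99 and 2.30 (0.93 ± 0.22). Both overlapped because all A libraries were higher than their B partners. SPRR1A ran the other way by letter with R820W, at 6.99 and 11.04 CPM against 4.65 and 3.81 (1.02 ± 0.30). The SPRR1A difference was 0.57 without I593T B and 1.54 without I593T A. Set side by side, the SPRR median was 0.14 for R820W and -0.83 for I593T against the WT libraries they share, and that of CC chemokines was 0.51 and -0.34. SPRR2 genes are close relatives on chromosome 1, and how reads were shared among them is not known.

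The 250 bases before the SPRR2F start are shown because SPRR2F had the largest log2 difference in its group. They lie on the minus strand at chr1:153113517-153113766 (GRCh38.p14, RefSeq). Capitals mark an AP-1 match that begins 196 bases before the start and an NF-kB match that begins 171 bases before it. In all 27305 RefSeq promoters of this length, 6.60% hold the AP-1 letters and 9.57% the NF-kB letters.
SPRR2F: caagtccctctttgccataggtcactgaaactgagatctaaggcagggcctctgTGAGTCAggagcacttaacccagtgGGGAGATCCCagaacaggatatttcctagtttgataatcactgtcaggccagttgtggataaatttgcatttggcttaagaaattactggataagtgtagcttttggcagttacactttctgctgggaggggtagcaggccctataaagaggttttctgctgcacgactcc

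The wider cornified envelope list had 14 of 29 members above the filter, 10 of them higher, and its median was 0.33 within A and -0.01 within B. In the fit it was 0.20, but 0.06 without I593T A and 0.08 without R820W A. ABCA12, the lipid transporter of lamellar granules, was at 24.4 and 18.9 CPM against 18.5 and 10.5 (0.60 ± 0.18). TGM1, the transglutaminase that cross-links the envelope, was at 10.5 and 23.1 CPM against 6.92 and 8.45 (1.00 ± 0.42). The S100 and antimicrobial genes gave 10 of 14 higher with a median of 0.10 (0.03 without R820W A) and 0 at an unadjusted p under 0.05.

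KRT15, a keratin of basal keratinocytes, was at 125 and 130 CPM with R820W and at 55.2 and 69.2 with I593T. The log2 difference was 1.05 ± 0.20, and the groups did not overlap. KRT4 was at 3.35 and 6.73 CPM against 1.25 and 2.54 (1.42 ± 0.51). The abundant simple keratins KRT8 (0.08 ± 0.17) and KRT18 (-0.11 ± 0.16) overlapped. In all, 12 of 16 keratins were higher, with a median of 0.41 within A and 0.04 within B. The median of 0.25 in the fit was 0.07 without R820W A and 0.43 without R820W B. Desmosome genes, which hold keratinocytes together, had 8 of 10 higher with a median of 0.18. DSG3, the target of pemphigus antibodies, was at 317 and 344 CPM against 229 and 237, with no overlap (0.50 ± 0.12). Hemidesmosome and laminin genes were divided, with 5 of 10 higher and 0 at an unadjusted p under 0.05, and 7 of 10 were higher without I593T B but 2 without I593T A.

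Clade B serpins and the plasminogen system had 11 of 12 members higher and a median of 0.19, and 0.35 without I593T A, with 8 of 12 higher. SERPINB13, a protease inhibitor of stratified epithelium, was at 92.6 CPM in R820W A and 215 in R820W B. It was at 58.1 and 103 with I593T, so both letters gave a higher value with R820W while B exceeded A in both groups (0.86 ± 0.18). PLAU, the urokinase gene, was at 944 and 525 CPM against 615 and 362 (0.58 ± 0.12), with A above B throughout. SERPINB2, a urokinase inhibitor, overlapped (0.01 ± 0.22).

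The rest of the 14 higher genes of smallest p spanned several roles. NEURL3, an E3 ubiquitin ligase gene, was at 5.68 and 9.80 CPM with R820W and at 1.94 and 4.50 with I593T, with no overlap (1.32 ± 0.25). CEACAM5, an adhesion glycoprotein, was at 4.90 and 40.0 CPM against 2.87 and 14.1 (1.17 ± 0.27), so the letter made more difference than the construct, and its difference was 0.73 without I593T B. SDCBP2 (0.78 ± 0.18), PTAFR, the receptor of platelet-activating factor (0.62 ± 0.15), and DNTTIP1 (0.73 ± 0.17) completed them. Of the 14, 9 did not overlap between the groups, against 13.9% of all genes, a count that the choice by small p and equal sign favours. The adjusted p in edgeR's fit was 1.00 for all of them except CCL4L2.

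The promoter of NEURL3 is shown because it holds 2 NF-kB matches, in capitals, that begin 185 and 165 bases before the start. It lies on the minus strand at chr2:96508110-96508359 (GRCh38.p14, RefSeq). Among the 10 of the 14 higher genes with a promoter in the table, 1 (NEURL3) held the NF-kB letters, 3 the AP-1 letters, 0 the TEAD letters and 1 the E-box. Among the 13 of the 14 lower genes, 3 held the NF-kB letters, 1 the AP-1 letters, 2 the TEAD letters and 2 the E-box. Of all 27305 promoters, 9.57% held the NF-kB letters, 6.60% the AP-1 letters, 11.9% the TEAD letters and 6.49% the E-box.
NEURL3: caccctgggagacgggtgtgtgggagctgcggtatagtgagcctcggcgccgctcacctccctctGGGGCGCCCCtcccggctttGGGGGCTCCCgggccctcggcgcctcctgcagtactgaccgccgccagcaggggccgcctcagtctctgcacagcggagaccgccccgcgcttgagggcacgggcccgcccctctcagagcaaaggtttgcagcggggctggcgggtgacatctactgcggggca

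Of the 14 lower genes, CDH2 had the smallest p. CDH2, which encodes N-cadherin, was at 19.9 CPM in R820W A and 9.43 in R820W B, and at 34.7 and 17.2 in I593T. Within each letter the R820W value was the lower, but R820W A exceeded I593T B, so the groups overlapped. The log2 difference was -0.84 ± 0.15, and it was nearly the same within A (-0.80) and within B (-0.86). CDH2 is also among the markers listed for kidney-derived lines, whose other tested member NEFL differed by 0.01 ± 0.29.

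YAP is a co-activator that works through TEAD factors and responds to cell shape and density. Of 27 YAP target genes, all tested, 20 were lower and 7 higher with R820W, with a median of -0.15 (-0.05 within A and -0.36 within B). An unadjusted p under 0.05 was found for 6, all lower, where the share of all genes was 1.46%. Both R820W libraries lay below both I593T libraries for 9 of the 27, where the share of all genes was 14.2%. AXL, a receptor tyrosine kinase, was at 196 and 178 CPM with R820W and at 276 and 319 with I593T, with no overlap (-0.68 ± 0.17). ANKRD1, a nuclear cofactor, was at 5.56 and 3.18 CPM against 8.14 and 15.98 (-1.38 ± 0.40), again with no overlap, and its difference was -2.14 without R820W A, -0.75 without R820W B and -0.89 without I593T B. CRIM1 was at 52.8 and 47.4 CPM against 67.4 and 75.5 (-0.51 ± 0.16), also without overlap. The matricellular genes CYR61 and CTGF turned on I593T B. CYR61 was at 106 and 92.3 CPM with R820W, 110 in I593T A and 257 in I593T B (-0.80 ± 0.36). CTGF was at 1.18 and 0.700 CPM against 1.66 and 5.23 (-1.80 ± 0.73). Without I593T B their differences were -0.19 and -0.58, and without I593T A they were -1.33 and -2.76. CYR61 was at -0.40 without R820W B. Without I593T B, 16 of 27 were lower, the median was -0.08 and 0 had an unadjusted p under 0.05. Without R820W B the median was -0.09, again with 0 such genes, and without I593T A and R820W A it was -0.30 and -0.28.

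The promoter of ANKRD1 is shown as that of a YAP target among the 14 lower genes. Capitals mark 2 TEAD matches, read as GGAATG on this strand and beginning 220 and 128 bases before the start, and an AP-1 match that begins 195 bases before it. It lies on the minus strand at chr10:90921088-90921337 (GRCh38.p14, RefSeq). Its start, unlike those of the other promoters shown, did not match the start of a GENCODE transcript. The TEAD letters are in 11.9% of all such promoters.
ANKRD1: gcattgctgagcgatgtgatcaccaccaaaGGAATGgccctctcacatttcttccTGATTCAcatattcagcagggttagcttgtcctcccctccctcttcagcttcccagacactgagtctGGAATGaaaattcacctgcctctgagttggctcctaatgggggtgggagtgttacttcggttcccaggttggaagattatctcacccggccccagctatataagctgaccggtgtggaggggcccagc

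Of the 14 lower genes, 12 did not overlap between the groups, where 14.2% of all genes lay below, but the choice by small p and equal sign favours such genes. GADD45GIP1, a component of mitochondrial ribosomes, was at 2.78 and 4.15 CPM with R820W and at 5.06 and 16.9 with I593T (-1.48 ± 0.32). RGS7, a regulator of G-protein signalling, was at 7.15 and 7.60 CPM against 12.2 and 15.1 (-0.88 ± 0.21). CREG1 was at 6.58 and 7.54 CPM against 10.00 and 22.2 (-1.12 ± 0.30). Without I593T B the difference was -0.60 for CREG1, -0.97 for GADD45GIP1 and -0.31 for BAG2. SAV1, a scaffold of the Hippo kinase cascade that restrains YAP, was at 22.4 and 17.2 CPM against 30.6 and 26.4 (-0.54 ± 0.14). The RNA-binding proteins HNRNPAB (-0.55 ± 0.15), DAZAP1 (-0.65 ± 0.18) and SRSF9 (-0.61 ± 0.17) were in this set. TXNRD2, the mitochondrial thioredoxin reductase (-0.57 ± 0.15), TAF4B (-0.83 ± 0.23) and the HSP70 co-chaperone BAG2 (-0.54 ± 0.16) were also in it. Each of these genes had an adjusted p of 1.00 in edgeR's fit.

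Genes of growth leaned slightly lower with R820W. Of 30 ribosome biogenesis genes, a class that MYC is known to drive, 28 were lower. Their median was -0.14 (-0.06 within A and -0.21 within B). An unadjusted p under 0.05 was found for 2, both lower, where the share of all genes was 1.46%. Without I593T B the median was -0.07, 23 were lower and 0 had such a p, and 0 had one without R820W B. RRP9 was at 19.5 and 21.3 CPM with R820W, 21.7 in I593T A and 51.1 in I593T B (-0.74 ± 0.27). FBL, the methyltransferase of box C/D particles, was at 50.8 and 60.4 CPM against 53.9 and 98.7 (-0.41 ± 0.17). The abundant NPM1 (-0.13 ± 0.13) and NCL (-0.04 ± 0.13) were nearer to 0. Of 76 cytosolic ribosomal protein genes, 74 were lower, with a median of 0.00 within A and -0.24 within B, and 0 had an unadjusted p under 0.05. Without R820W B that median was 0.01, with 41 of 76 higher. Of the MYC network, MXD1, an antagonist of MYC, was at 133 and 211 CPM against 102 and 102 (0.71 ± 0.23), and 6 of 11 were higher.

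Chaperones also leaned lower, with 22 of 28 below 0 and a median of -0.11. Both R820W libraries lay below both I593T libraries for 5 of the 28, which is close to the share of all genes (14.2%). An unadjusted p under 0.05 was found for 4, all lower, where the share of all genes was 1.46%. Without I593T B the median was -0.05 and without I593T A -0.18, and 0 members had such a p without I593T B, R820W A or R820W B. HSPA1A was at 778 and 496 CPM against 1029.7 and 833 (-0.59 ± 0.20), and HSPE1 was at 530.0 and 535 against 659 and 778 (-0.43 ± 0.14). Interferon-stimulated genes had 32 of 40 higher, with a median of 0.13. That median was 0.05 without I593T B, with 28 of 40 higher, and 0.23 without I593T A. Both R820W libraries lay above both I593T libraries for 16 of the 40, where the share of all genes was 13.9%. An unadjusted p under 0.05 was found for only 1 of the 40, on the higher side, where the share of all genes was 1.24%. IRF1 was at 117 and 132 CPM against 80.4 and 79.6 (0.63 ± 0.27), while the abundant ISG15 overlapped (-0.07 ± 0.32).

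**Figure D5:**
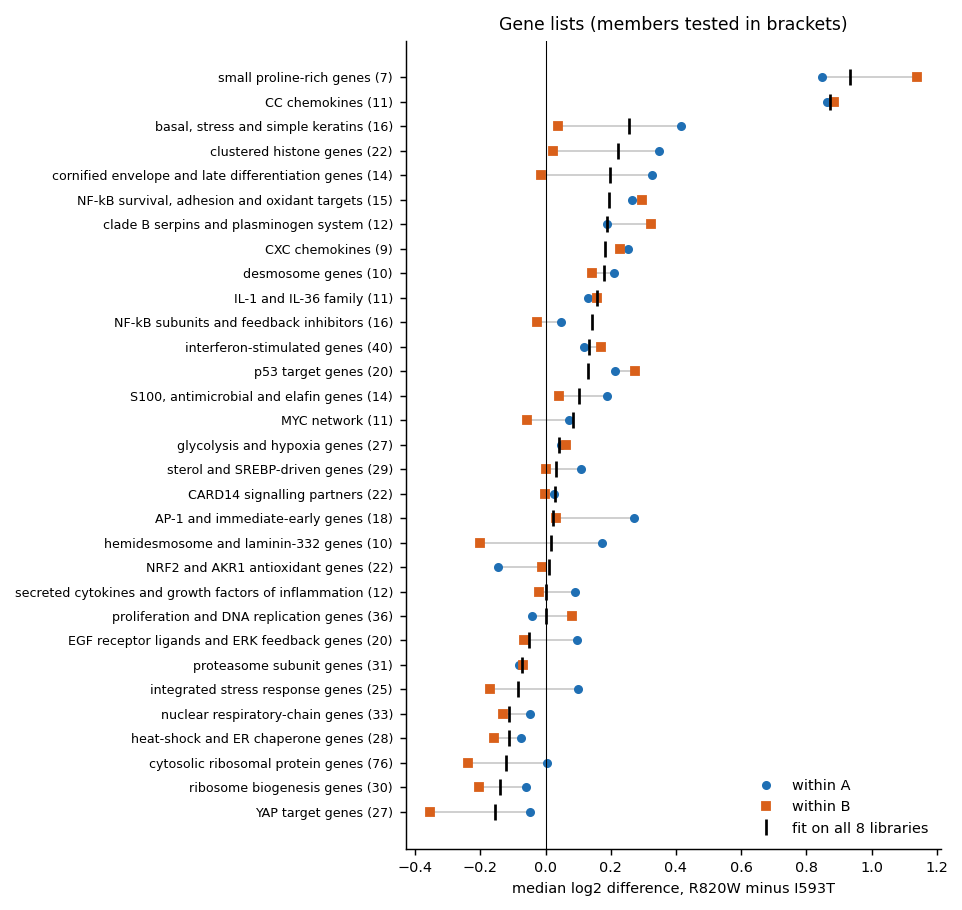
Median log2 difference, R820W minus I593T, of each gene list, with circles for the value within replicate A, squares for that within B and bars for the fit on all 8 libraries. Small proline-rich genes (0.93) and CC chemokines (0.87) lie to the right of all other lists in A and in B, and YAP target genes (-0.15) lie lowest in the fit.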

How the data were processed

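RNA was measured in 8 libraries (4 constructs, replicates A and B). The authors deposited 1 table of raw whole-number counts per gene symbol, per the file headers. The submitters' processing notes name hg19, FastQC, MACS2 and DESeq2, without roles. Aligner, annotation and strandedness were not given in the sources used here. No symbol was resolved where the table has a date in its place (27 rows).

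Genes with at least 10 counts in at least 2 of the 4 libraries of the comparison were fitted with edgeR 4.0.16 (R 4.3.3) in a quasi-likelihood model of group and replicate letter on all 8 libraries, scaled by trimmed means of M values. Tests were two-sided with Benjamini-Hochberg adjustment over all 14355 genes at a threshold of 0.05. SE is the log2 difference over the root of its F statistic. CPM uses the scaled library sizes, and values within a letter are log2 CPM differences with a prior count of 2. On simulated counts, 70 of 100 genes changed 2-fold and 100 of 100 changed 4-fold were recovered, with 15 false calls. The simulated counts held no trend of the construct difference with GC content, unlike the real ones. This recovery therefore does not measure the power of the real comparison, in which CCL4L2, at a fold of 5.86, did not pass.

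Same-letter libraries deviated together from their group means, with correlations of 0.41 to 0.60 except WT with N737H (0.080), and 0.55 for R820W with I593T. The rule names CARD14, MYC, and 14 genes per direction of smallest p (mean over the 4 libraries 5 CPM or more, 1 sign in A and B). For gene lists it names up to 3 members of smallest p and the 2 most abundant. Other genes were chosen after their values were seen. A result that needs an item withheld for evaluation is not reported here. Members and lists were chosen with earlier results of these data known. Promoters came from a RefSeq table and transcripts from GENCODE. Alternatives were no block, the 4 libraries alone, DESeq2 1.42.0, limma 3.58.1 voom, other scaling and filters, removal of single genes, each library left out and, chosen after seeing the data, a correction for GC content.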

Additional observations from a re-analysis of the deposited data

How the results depend on the processing

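With 2 libraries per group, 1 library can carry a difference, and small changes may have been missed. The count of genes past adjustment was 0 in edgeR's fit with the replicate block, without the block, with another scaling, with another filter, and with the GC correction, which was chosen after seeing the data. It was 5 with the 4 libraries alone and the block, 2 with no filter on low counts (CTLA4, one of the set-apart genes, and CCL4L2), 7 by DESeq2 with the block, and 1 by limma voom. With each library left out it ran from 0 to 2. CCL4L2 passed without WT A, CCL4L2 and KRT15 without WT B, and the set-apart genes PTP4A2 and SENP3 without I593T A. The 388 genes with an unadjusted p under 0.05 became 188 without the replicate block, 989 with the 4 libraries alone and the block, and 213 by DESeq2 without the block. They ran from 92 (without R820W B) to 891 (without WT B) with each library left out, and also moved by over 1.5 times without R820W A (195), WT A (862), I593T A (676) or I593T B (101). The cause of these shifts was not tested. The 4 genes set apart became 64 at a 2-fold rule, 20 against the 3 other libraries of the comparison and 7 at a minimum of 1 CPM. The MYC difference changed sign within its error, running from -0.19 without I593T A to 0.048 without I593T B, and was 0.0091 without R820W B. Of 799 values of 40 named genes across 20 alternatives, 784 kept their direction and side of the threshold, 13 newly passed it and the 2 others were those of MYC. Most of the 40 were chosen by small p and an equal sign in A and B, and none passed in edgeR's main fit. That choice favours such a count, which is therefore no independent measure of stability. Medians of CC chemokines (0.65 to 1.14), small proline-rich genes (0.83 to 1.18) and YAP targets (-0.30 to -0.08) kept their sign in the 20 alternatives. Many other lists did too, among them glycolysis and hypoxia genes (0.03 to 0.09), so a kept sign does not mark these lists out.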

Other observations

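HIST1H4C, a replication-dependent histone gene, was at 175 and 279 CPM in R820W A and B, 211 in I593T A and 796 in I593T B (-0.87 ± 0.27). CYC1, a subunit of respiratory complex III, was at 73.6 and 132 CPM with R820W and at 86.5 and 385 with I593T (-0.96 ± 0.38). The proteasome subunit PSMD3 was at 26.3 and 23.5 CPM against 28.5 and 67.7 (-0.86 ± 0.31). In each of these 3 genes I593T B was the highest of the 4 libraries, and each was the member of smallest p in its list. Their lists did not all share that pattern. Clustered histone genes had 14 of 22 higher with R820W and a median of 0.22. Proteasome subunits had 28 of 31 lower, with a median of -0.08 within A and -0.07 within B. Nuclear respiratory-chain genes had 25 of 33 lower with a median of -0.11, which was -0.04 without R820W B. None of the 3 genes passed adjustment in edgeR's fit.

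Stress and metabolic genes with an unadjusted p under 0.05 differed alike in both letters. WARS, a tryptophan tRNA synthetase that interferon also induces, was at 514 and 523 CPM with R820W and at 366 and 337 with I593T (0.56 ± 0.20). NDRG1, a hypoxia-induced gene, was at 15.2 and 19.6 CPM against 9.19 and 12.2 (0.70 ± 0.22). CDKN1A, the p53 target that encodes p21, was at 353 and 326 CPM against 264 and 270 (0.34 ± 0.14), and AKR1C1, an NRF2 target, at 13.4 and 10.7 against 9.11 and 6.74 (0.61 ± 0.17). For these 4 genes both R820W libraries lay above both I593T libraries, where the share of all genes was 13.9%. Each of the 4 was the 1 member of its list with an unadjusted p under 0.05, a choice that favours a lack of overlap. Their lists were divided, with medians of -0.08 for the integrated stress response, 0.04 for glycolysis and hypoxia, 0.13 for p53 targets and 0.01 for antioxidant genes. Proliferation genes were even, with 19 of 36 higher and a median of 0.00.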
